A study of Sus scrofa with 8 samples.

Results

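The miRNAs of the imprinted DLK1-DIO3 domain were followed in the livers of young and old sows. Members were taken by name. A row of the miRNA table was a member when its name, with or without the ssc prefix that marks a pig entry, was miR followed by 1 of 40 numbers that belong to this domain in human and mouse, with any letter or arm suffix. The rule gave 45 of 888 rows, from 32 hairpins, and 29 of the 40 numbers had a row. Of these rows 10 carried the ssc prefix and 35 did not. Both young sows were 180 days old and both old sows were 8 years old. All 4 were healthy females of the Yana breed without shared ancestors in recent generations, and each gave 1 piece of whole liver, from which 1 small RNA library and 1 ribosomal RNA-depleted RNA-seq library were made. No animal was treated or genetically modified. Age and breeding history cannot be told apart in these animals, because the young sows had not yet given birth and the old sows had been taken out of production after years of breeding.

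The domain holds genes that are read from only 1 parental chromosome. In mammals DLK1, RTL1 and DIO3 are expressed from the paternal copy, whereas the long noncoding RNAs MEG3, MEG8 and MEG9 and the miRNAs between them are expressed from the maternal copy. A small group of hairpins lies beside or antisense to RTL1, and a long tandem array runs from miR-379 to miR-656. These miRNAs are best known from placenta, brain and fetal tissue, and mice without the array show metabolic defects of the newborn liver. Among the members, 9 rows belonged to the RTL1 group and 36 to the array. In the pig RefSeq gene table, 7 hairpin genes of the rule were found. MIR493, MIR127, MIR432 and MIR136 stood next to MEG3 and RTL1 on chromosome 7, whereas MIR376C, MIR376A and MIR381 stood with DIO3 on an unplaced sequence, so the place of the other rows rests on their human and mouse namesakes. Parental origin was not measured.

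Values are normalised values per miRNA as the authors deposited them, on a scale of their own, and the read numbers behind them were recovered from the whole steps between values. Listed reads came to 14139461 for young replicate 1 and 11661943 for young replicate 2, and to 13217134 and 12839850 for old replicates 1 and 2. These totals are above the clean reads per small RNA library that the paper reports. Shares of listed reads are therefore not shares of the reads sequenced. A read could be listed under more than 1 name, as for miR-122, the hepatocyte miRNA, which appeared as a pig row and again as miR-122-5p with nearly the same values. This miRNA was the sign of liver in every library, with 3436134, 2707345, 3137803 and 3500887 reads of ssc-miR-122 in young 1, young 2, old 1 and old 2. The DLK1-DIO3 members were scarce beside it. Together they took 39.1 of every 1000000 listed reads in young 1 (95% Wilson interval 36.0 to 42.5), 84.0 in young 2 (78.9 to 89.5), 284 in old 1 (275 to 293) and 22.8 in old 2 (20.4 to 25.6). These intervals, and the 3-read limits given with zeros, cover counting error only. In whole liver, fewer cells of a type and less RNA per cell cannot be told apart.

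All 45 members had their highest value in old replicate 1. Among the 867 rows that were above 0 in at least 2 libraries, the same was true of 28.1%, and among the 545 of these with a known miRNA name it was true of 32.7%. Old replicate 2 did not share the high values. It lay below both young livers for 26 of the 45 members, against 32.2% of tested rows, and above both young livers for 6, against 42.0%. The 2 old livers therefore stood on opposite sides of the young livers for 26 members, a pattern found in 7.61% of tested rows. No member showed the reverse, old 2 above and old 1 below (4.73% of tested rows), none was highest in old 2 (30.2%), and none was below both young livers in both old livers (16.1%). Summed over the members, the value was 738 in young 1, 943 in young 2, 4266 in old 1 and 348 in old 2. Old 1 was thus 5.08-fold above the young mean, the young mean was 2.41-fold above old 2, and the old livers differed from each other by 12.2-fold. The old mean was 2.75 times the young mean, but this ratio was 0.415 without old replicate 1 and 5.08 without old replicate 2.

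**Figure D1:**
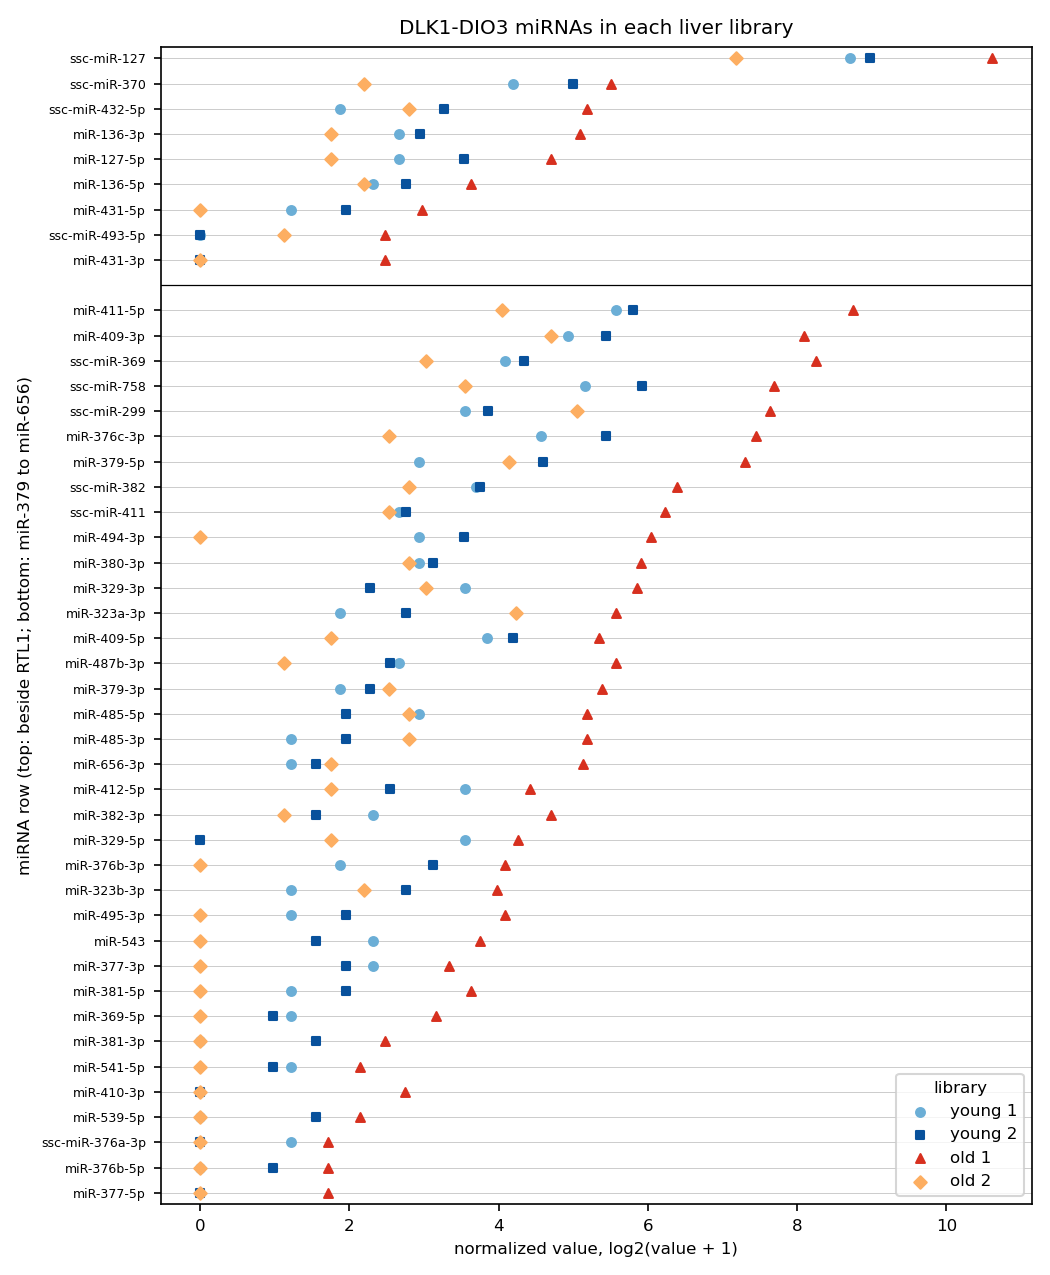
Normalised value of each of the 45 DLK1-DIO3 miRNA rows on the log2(value + 1) scale (x axis), 1 line per row and 1 point per liver library, with rows beside RTL1 above and rows from miR-379 to miR-656 below the line. The red triangles of old replicate 1 lie to the right of all other points in all 45 rows.

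**Figure D2:**
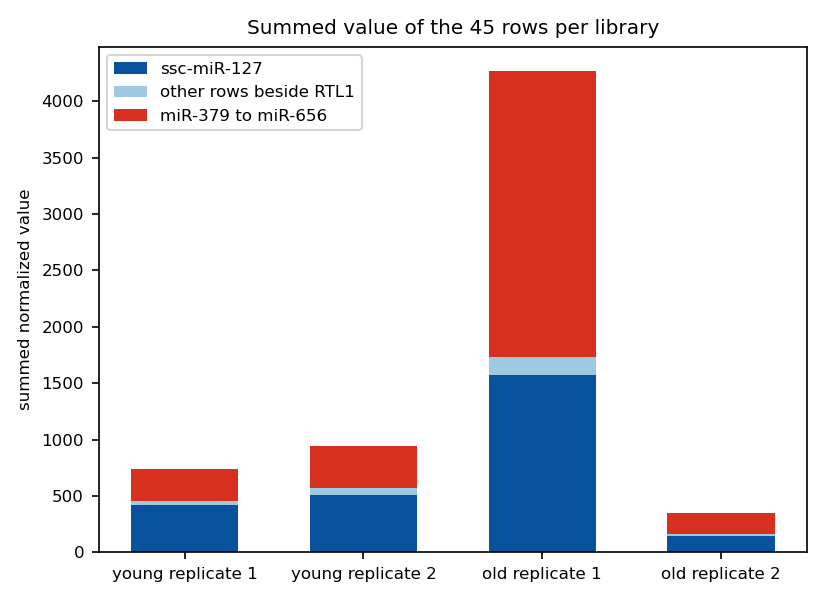
Summed normalised value of the 45 rows in each of the 4 libraries (y axis, from 0), split into ssc-miR-127, the other rows beside RTL1 and the rows from miR-379 to miR-656. Old replicate 1 reached 4266, against 738 and 943 in the young livers and 348 in old replicate 2.

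Old was compared with young by limma on log2(value + 1) over the 867 tested rows, 42 of them members, with Benjamini-Hochberg adjustment over all rows. To be called, a row had to reach an adjusted p below 0.05 and a log2 fold change beyond 1 in either direction. No member was called, and neither was any other row (0%). The lowest limma adjusted p was 0.263 among members and 0.098 among all rows. At an unadjusted p below 0.05 there were 4 members, all higher in old livers, whereas 11.9% of all tested rows reached that level 8.30% with a higher and 3.58% with a lower old value. The fitted log2 fold change was above 0 for 33 members and below 0 for 9, against 41 and 1 in both edgeR tests on recovered reads, and 10 and 27 of 37 by limma without old replicate 1. Its median by limma was 0.55 over the members and 0.18 over all tested rows, and other scalings of the libraries moved the median of all rows to 0.04 (median of ratios) or −0.01 (TMM). The count depended on a single library. Without old replicate 2, limma called 16 of 41 members, all higher in the remaining old liver, where 4.30% of 837 rows were called. Without old replicate 1, it called 1 of 37 members, miR-494-3p, which was lower (adjusted p = 0.00657), where 2.65% of 830 rows were called. In each of these fits limma gave every member the same SE, 0.869 without old replicate 2 and 0.833 without old replicate 1. A member's own spread between the young livers thus did not set its SE, and the single old liver is assumed to vary by that common amount. These calls therefore followed the size of the fold change in 1 old liver. When recovered reads were tested with edgeR's exact test, the kind of test the study used, 1 member was called, ssc-miR-299 (adjusted p = 0.0401), where 3.69% of rows were called. From the same small RNA libraries and with edgeR, the paper counted miR-299 among its differentially expressed miRNAs, so its call is not independent of this one. It also measured miR-299 by q-PCR in livers of both ages. Those q-PCR values were not used here. The quasi-likelihood test of edgeR called 0 members and 0 rows, with 3 members and 14.1% of rows at an unadjusted p below 0.05. With a trended variance limma called 0 members and 1.15% of rows. An exact permutation test of 2 against 2 livers cannot give a p below 0.333.

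The members were compared with the rest of the table in each old liver apart. In log2(value + 1), the median difference of old 1 from the young mean was 2.46 over the tested members and 0.16 over the 825 tested rows outside them. For old 2 the medians were −0.87 and 0.18. Old 1 was at least 4-fold above each other library in 25 rows of the 867 (2.88%), and 19 of these were members. Among the 478 rows with at least 20 reads in old 1, ordered by their excess over the next highest library, the first 12 were members, and so were 16 of the first 20. Only 25 members had enough reads to enter that order. The read limit was set in old 1 itself, where the members were high, so rows could enter through that library alone. An example is miR-656-3p, with 1, 2, 30 and 2 reads in young 1, young 2, old 1 and old 2. The order thus partly follows from the limit and only describes old 1. The row outside the domain with the most reads among the first 20 was miR-212-3p, at 45.4, 40.4, 232 and 34.5 in young 1, young 2, old 1 and old 2.

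**Figure D3:**
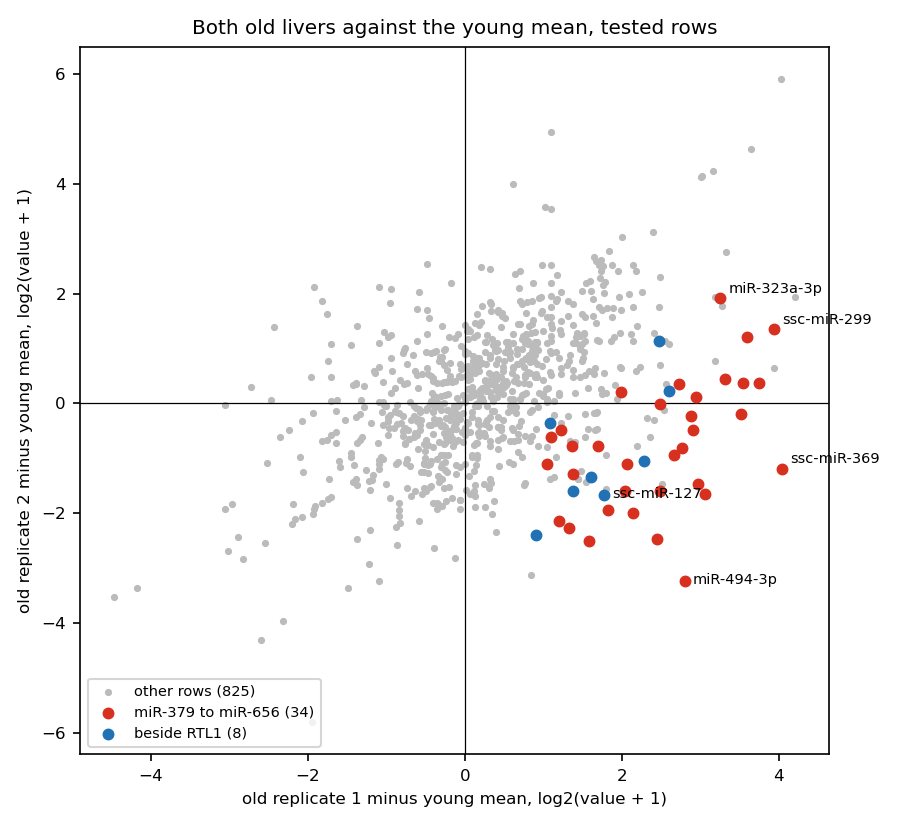
Difference of each old liver from the young mean in log2(value + 1), old replicate 1 on the x axis and old replicate 2 on the y axis, for the 867 tested rows. The 42 tested members (coloured) all lie to the right of 0, most of them below the horizontal line, with ssc-miR-299 and miR-323a-3p among those above it.

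Low reads limited what old replicate 2 could show. Of the 45 members, 16 were at 0 there and 28 had 3 reads or fewer, against 7 and 24 in young 1, 6 and 20 in young 2, and 0 and 5 in old 1. The median member had 3, 5, 29 and 2 reads in the same order. For the 19 members above 3 reads in both young livers, old 1 was 1.84- to 17.3-fold above the young mean, with a median of 7.51-fold. Of these, 12 also had more than 3 reads in old 2. There, 9 lay below both young livers and 1, miR-299, lay above both, with ratios to the young mean from 0.146 to 2.66 and a median of 0.591.

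The RTL1 group was led by ssc-miR-127, which is transcribed antisense to RTL1 and is perfectly complementary to its transcript. Its value was 416 in young 1, 505 in young 2, 1570 in old 1 and 144 in old 2, from 312, 525, 1381 and 121 reads. On this scale old 1 was 3.41-fold above the young mean and old 2 was 3.20-fold below it. Of every 1000000 listed reads it took 22.1 in young 1, 104 in old 1 and 9.42 in old 2. The young livers differed more on that scale, with 95% Wilson intervals of 19.7 to 24.7 in young 1 and 41.3 to 49.0 in young 2. The fitted log2 fold change of 0.05 (SE 1.05, limma adjusted p = 0.988) averaged these opposite values, and its sign turned under other scalings of the libraries (−0.11 with the median of ratios, −0.15 with TMM). The other arm of that hairpin, miR-127-5p, had 5.34, 10.6, 25.0 and 2.38 and followed the same order of livers.

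In hepatocyte culture miR-370 is known for its effect on fatty acid oxidation genes. Here ssc-miR-370 had 17.3, 30.8, 44.3 and 3.57 in young 1, young 2, old 1 and old 2, from 13, 32, 39 and 3 reads. Old 1 was only 1.84-fold above the young mean, the smallest excess among members above 3 reads in both young livers. Its log2 fold change was −0.75 (SE 1.04, limma adjusted p = 0.824). The row ssc-miR-493-5p had no read in either young liver, which allows up to 3 reads there, and had 4.55 and 1.19 in old 1 and old 2 from 4 and 1 reads. It had an unadjusted limma p of 0.028 (adjusted p = 0.348), and 5 reads in all lay behind it. The remaining rows of the group were miR-136-3p, miR-136-5p, ssc-miR-432-5p and both arms of miR-431. They had 4 to 31 reads in old 1 and at most 9 in any other library.

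In the array the most abundant row was miR-411-5p, a known target of adenosine-to-inosine editing. It had 46.7 in young 1, 54.8 in young 2, 429 in old 1 and 15.5 in old 2. Old 1 was 8.44-fold above the young mean and old 2 was 3.28-fold below it. Next came miR-409-3p with 29.3, 42.3, 272 and 25.0, where old 2 lay only a little under the lower young liver. The pig row ssc-miR-369 had 16.0, 19.2, 305 and 7.14, and its 17.3-fold excess of old 1 over the young mean was the largest among the members above 3 reads in both young livers. Its log2 fold change of 1.43 had an SE of 1.45 (limma adjusted p = 0.740), since both old livers stood on opposite sides of the young ones.

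The same split was seen in ssc-miR-758, at 34.7, 59.7, 205 and 10.7. It was also seen in miR-376c-3p, at 22.7, 42.3, 174 and 4.76, and in ssc-miR-382, with 9, 13, 73 and 5 reads. In miR-376c-3p old 1 was 5.35-fold above and old 2 was 6.83-fold below the young mean, so that its fitted log2 fold change was −0.01 (limma adjusted p = 0.998). The miR-376 rows and the miR-323 rows have close relatives in the same array, and reads could have been divided among them. The row miR-494-3p had 6.67, 10.6 and 64.8 in young 1, young 2 and old 1 and was at 0 in old 2, where 3 reads would have been worth 3.57. The young mean was therefore at least 2.42-fold above old 2.

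Only 6 members were higher in both old livers than in both young livers, against 28.3% of tested rows. Of these, ssc-miR-299 and miR-323a-3p rested on more than 10 reads in each old liver. The row ssc-miR-299 had 10.7 and 13.5 in the young livers, 199 in old 1 and 32.1 in old 2, from 8, 14, 175 and 27 reads. Old 1 was 16.5-fold and old 2 was 2.66-fold above the young mean. Its log2 fold change was 2.65 (SE 0.88, limma unadjusted p = 0.018, adjusted p = 0.299), and it stayed between 1.35 and 3.94 when any 1 liver was left out. It made up 1.45% of the member reads of young 1, 1.43% of those of young 2, 4.66% in old 1 (95% Wilson interval 4.03 to 5.39) and 9.22% in old 2 (6.41 to 13.1).

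The row miR-323a-3p had 2.67 and 5.77 in the young livers, 46.6 in old 1 and 17.8 in old 2, from 2, 6, 41 and 15 reads. Its log2 fold change was 2.59 (SE 0.71, limma unadjusted p = 0.007, adjusted p = 0.263). When only rows with a mean of at least 10 were fitted, it was the 1 member called (adjusted p = 0.0306), where 2.88% of 556 rows were called. The other 4 of the 6 were miR-485-3p, miR-379-3p, ssc-miR-493-5p and miR-656-3p. In old 2 these had 5 reads or fewer. miR-485-3p had 1.33, 2.89, 35.2 and 5.95 (log2 fold change 2.40, limma adjusted p = 0.333), and miR-379-3p had 2.67, 3.85, 40.9 and 4.76 (log2 fold change 1.88, limma adjusted p = 0.475).

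At the start of the array, miR-379-5p had 6.67, 23.1, 157 and 16.7, so that old 2 lay between the young livers (log2 fold change 1.96, limma adjusted p = 0.530). The further named rows were ssc-miR-411, miR-409-5p, miR-485-5p, miR-382-3p and miR-369-5p. ssc-miR-411 had 5.34, 5.77, 73.9 and 4.76, a 13.3-fold excess of old 1 over the young mean with the other 3 livers almost level. miR-409-5p had 13.3, 17.3, 39.8 and 2.38, and miR-485-5p had 6.67, 2.89, 35.2 and 5.95. miR-382-3p had 3, 2, 22 and 1 reads, and the value of miR-369-5p was 1.33, 0.962 and 7.96, with 0 in old 2. In each of these rows old 1 stood clear of the other livers.

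The other 24 members had 2 to 52 reads in old 1 and at most 9 in any other library. Of these, 21 could be tested, with log2 fold changes from −0.47 to 2.06 and a smallest limma unadjusted p of 0.0838. The largest of them in old 1 were miR-380-3p with 59.1, miR-329-3p with 56.9 and miR-487b-3p with 46.6, chosen after their values were seen. Their highest values in the other livers were 7.70, 10.7 and 5.34. The 3 members that were not tested, miR-410-3p, miR-431-3p and miR-377-5p, had reads in old 1 only, 5, 4 and 2 of them. For each, the other libraries allow up to 3 reads.

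Both places in the domain showed the split of the old livers, to different degrees. The summed value of the 9 rows beside RTL1 was 452, 571, 1735 and 163 in young 1, young 2, old 1 and old 2, and that of the 36 array rows was 285, 372, 2531 and 186. Old 1 was 3.39-fold above the young mean in the RTL1 group and 7.70-fold above it in the array. The young mean was 3.14-fold above old 2 in the RTL1 group and 1.77-fold above it in the array. The single row ssc-miR-127 took 56.4% and 53.6% of the member reads in the young livers but 36.8% in old 1 (95% Wilson interval 35.3 to 38.4) and 41.3% in old 2 (35.8 to 47.0). Both old livers thus gave less of their member reads to miR-127 than either young liver, while their totals lay on opposite sides. With 2 livers of each age this was not tested over animals.

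Of the 32 hairpins, 13 had both arms or 2 rows in the table. The larger row held most of the reads of its hairpin in the abundant ones. ssc-miR-127 held 98.7%, 97.9%, 98.4% and 98.4% of its hairpin's reads in young 1, young 2, old 1 and old 2. For miR-411-5p beside ssc-miR-411, the shares were 89.7%, 90.5%, 85.3% and 76.5%, and for miR-379-5p they were 71.4%, 85.7%, 79.3% and 77.8%. The hairpin miR-409 was less even. Its 3p arm held 68.8% of the reads in young 1 (95% Wilson interval 51.4 to 82.0), 71.0% in young 2 (58.7 to 80.8), 87.2% in old 1 (82.8 to 90.7) and 91.3% in old 2 (73.2 to 97.6). The interval of old 1 did not overlap those of the young livers, whereas that of old 2, from 23 reads, did. This was 1 of the 13 hairpins looked at. The intervals cover counting error within a liver only, and a difference in arm use between ages was not tested. Both arms of miR-485 had 31 reads in old 1 and 5 in old 2.

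Markers of other cell types were read beside the members in the same libraries. The values that follow are summed values over the young mean, first in old 1 and then in old 2, where the members had 5.08 and 0.415. The hepatocyte miRNA miR-122 stood at 0.995 and 1.16, and 5 stellate cell and fibroblast miRNAs stood at 1.17 and 0.935. Single rows differed from these sums. The minor arm miR-122-3p had 3559, 2138, 10094 and 8242 in young 1, young 2, old 1 and old 2. Of 10 stellate rows, 3 were highest in old 1 and 2 in old 2. Those 2 were miR-145-5p and ssc-miR-214, the latter with 6070, 3788, 3413 and 9154. The endothelial miR-126 stood at 1.97 and 0.996, the immune miRNAs miR-142, miR-150 and miR-223 at 2.69 and 1.33, and the erythroid miRNAs at 0.861 and 0.482. The erythroid sum was mostly ssc-miR-451, and 2 of its 4 rows were highest in old 2, ssc-miR-144 with 192, 88.5, 163 and 472 and ssc-miR-486 with 1878, 1334, 1608 and 2460. The neural and endocrine list of miR-7, miR-9 and miR-124 stood at 2.45 and 0.498, and 5 of its 7 rows were highest in old 1. Its sum was mostly miR-7, listed both as ssc-miR-7 and as miR-7-5p. The latter had 5942, 2997, 11492 and 1627 in young 1, young 2, old 1 and old 2. The rest of the list did not have this order. ssc-miR-9 had 784, 574, 1341 and 906, and miR-124-3p, the neuronal miRNA, had 28.0, 2.89, 40.9 and 25.0. Over the 7 cell type lists, 4 of 38 rows had old 1 above and old 2 below both young livers, namely ssc-miR-7, miR-7-5p, miR-126-5p and ssc-miR-142-5p. The skeletal muscle sum was high in both old livers, at 2.91 and 5.40, and 6 of its 7 rows were highest in old 2. In the old livers most of it was miR-1, listed both as ssc-miR-1 and as miR-1-3p. The latter had 423, 205, 2371 and 5144 in young 1, young 2, old 1 and old 2. Not all rows were high in both old livers. ssc-miR-133a-3p had 643, 533, 598 and 1470, and ssc-miR-499-5p had 1102, 447, 1125 and 478. Of the immune list, 4 of 5 rows were highest in old 1, with miR-223-3p at 9824, 12265, 37596 and 16113. The part of these cell types in the members' values was not tested.

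**Figure D4:**
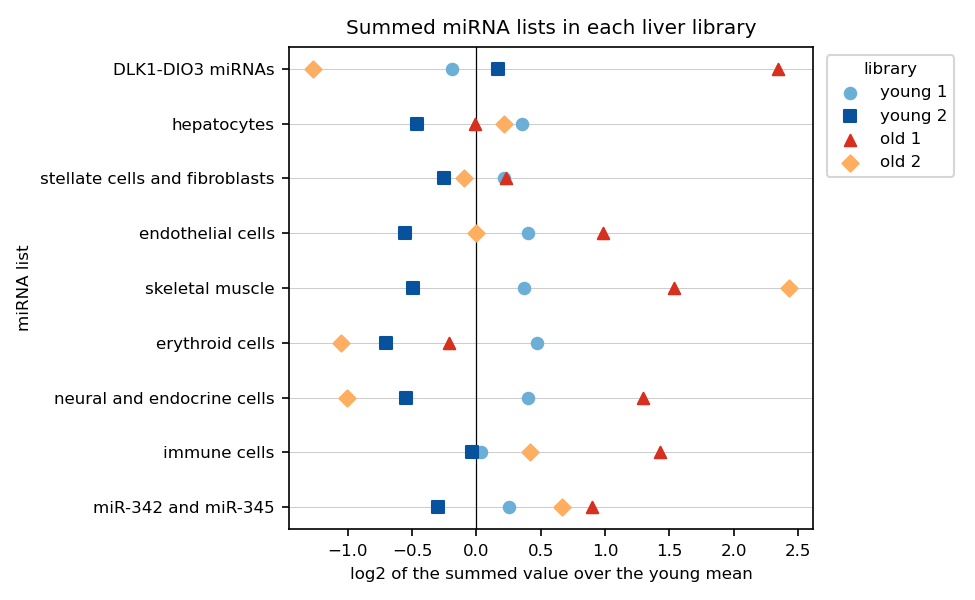
Summed value of the DLK1-DIO3 miRNAs and of each cell type or neighbour miRNA list in each library, as log2 over the mean of the young livers (x axis), 1 point per library. The DLK1-DIO3 sum spans the widest range, from old replicate 2 on the left to old replicate 1 on the right, whereas the skeletal muscle list is highest in old replicate 2.

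In the RNA-seq libraries of the same livers, marker mRNAs gave further values in CPM. Summed over 4 hepatocyte genes, old 1 was at 0.503 and old 2 at 0.772 of the young mean. Most of that sum was ALB, and APOA1 had another order, with 1064, 1156, 1898 and 894 in young 1, young 2, old 1 and old 2. The 3 endothelial genes stood at 2.20 and 1.11, with LYVE1, of sinusoidal endothelium, at 8.90, 8.01, 36.5 and 7.49 in young 1, young 2, old 1 and old 2. KDR, another endothelial gene, went the other way in old 1, with 10.6, 9.87, 2.26 and 10.3. The stellate list stood at 0.507 and 1.75, the erythroid list at 0.582 and 0.771, and the immune list at 1.48 and 1.32. The 2 immune genes differed, CD68 with 18.9, 15.9, 28.9 and 27.4 and PTPRC with 5.39, 5.78, 5.17 and 3.05. The 4 neural and endocrine genes were near the bottom of the scale, with sums of 0.881, 1.75, 1.06 and 0.892. The neuroendocrine marker CHGA had no reads in the young and 0.032 and 0.042 in old 1 and old 2, from 2 and 3 reads. ENO2, with 0.457, 0.578, 0.13 and 0.237, and SNAP25, with 0.261, 0.277, 0.097 and 0.028, were lower in both old livers. SYP had 0.163, 0.89, 0.796 and 0.585 in young 1, young 2, old 1 and old 2. The 3 skeletal muscle genes with a row summed to 0.904, 0.242, 0.081 and 2.33. Their part in the members' values was not tested either.

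Little could be read of the genes of the domain themselves. Of BEGAIN, DLK1, MEG3, RTL1, MEG8, MEG9 and DIO3, only RTL1, a gene derived from a retrotransposon, could be matched to a row by symbol, and it was listed at 0 in all 4 libraries. The other genes of the domain gave no value here. Symbols were found for 11654 of the 21607 gene IDs, and the noncoding RNA tables were not used here. Outside the imprinted domain, 7 of 11 neighbouring genes had a row and 6 were tested. By limma 0 of these 6 were called, where 0% of 16898 genes were, and 2 had an unadjusted p below 0.05, where 15.7% of all genes did. WDR25, on the DLK1 side, had 0.109, 0, 0.764 and 0.78 CPM (log2 fold change 0.75, limma adjusted p = 0.216). PPP2R5C, a phosphatase subunit on the DIO3 side, had 8.57, 8.49, 4.58 and 6.27 CPM (log2 fold change −0.58, limma adjusted p = 0.306). In both genes the old livers lay on the same side of the young ones. Of the 6 tested neighbours, 2 had old 1 above and old 2 below both young livers, as 4.85% of all tested genes did. These were HSP90AA1, a chaperone gene, with 62.6, 61.9, 82.9 and 42.1 CPM (limma adjusted p = 0.952), and WARS1, a tRNA synthetase gene, with 4.76, 3.66, 6.99 and 3.62 CPM (limma adjusted p = 0.808).

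The nearest miRNAs outside the imprinted domain were looked at as well, after the tables had been seen. miR-342-3p, in an intron of EVL, had 1554, 1172, 3011 and 2574 and was thus higher in both old livers. ssc-miR-345-3p had 384, 189, 214 and 164, and ssc-miR-345-5p had 184, 88.5, 111 and 90.4. None of the 3 rows had old 1 above and old 2 below both young livers, although miR-342-3p was highest in old 1. The row miR-1197, which belongs to the array in human but is not among the 40 numbers, had 0, 2, 6 and 0 reads. It too was highest in old 1, but old 2 was level with young 1 at 0, and its reads were few.

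Factors that keep genomic imprints and imprinted genes elsewhere were counted for comparison. Of 6 regulators, 4 had a row, and ZFP57, which protects methylated imprints, was listed at 0 in all libraries. Among the 3 that were tested, 0 were called and 0 had an unadjusted limma p below 0.05. DNMT1, the maintenance methyltransferase, had 0.98, 0.578, 1.17 and 1.13 CPM. Of 17 imprinted genes at other loci, 9 had a row, 0 were called by limma and 0 had an unadjusted p below 0.05, with a median log2 fold change of 0.16. Of those 9 genes, 1 was highest in old 1 and 6 were highest in old 2, against 23.9% and 21.9% of all tested genes. Some of these ranks were near ties. PLAGL1, the 1 highest in old 1, had 3 reads in each old library. GRB10 had 1.89 CPM in young 1 and 1.92 in old 2, and DCN had 5.00 in young 2 and 5.07 in old 2. PEG3 had 0.26 in old 1 and 0.306 in old 2. IGF2R was further apart, with 2.79 in young 1 and 4.52 in old 2, and so was MEST, with 0.403 in young 1 and 0.919 in old 2. DIRAS3 was the furthest apart, with 0.016 in old 1 and 1.71 in old 2, from 1 and 123 reads.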

How the data were processed

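Small RNA (NEBNext kit, MiSeq, 50-base single reads) was sequenced from 2 young and 2 old livers, and rRNA-depleted RNA from the same livers. The authors quantified miRNAs with mirdeep2 against miRBase, and deposited a normalised signal named TPM. It does not sum to 1000000 per library, its denominator is not given in the sources used here, and each value is a whole multiple of 1 read's worth (100% of values within 0.0006). The mRNA values are given here as CPM, and the authors made them with TopHat2 2.0.14, StringTie 1.2.3 and Salmon 0.6.0 on Sscrofa10.2. The paper names the unit TPM. These values sum to 408898 in young 1, 428910 in young 2, 365330 in old 1 and 346173 in old 2, not to 1000000. Ratios of old to young marker mRNAs were not adjusted for the lower old sums. Noncoding RNA tables were not used here.

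Rows above 0 in at least 2 libraries were fitted as log2(value + 1), old minus young, with limma 3.58.1 in R 4.3.3 and Benjamini-Hochberg adjustment over all rows. A fold change on this scale understates that of low rows. Calls needed an adjusted p below 0.05 and an absolute log2 fold change above 1. Tests were two-sided and were tested on simulated data. edgeR 4.0.16 on recovered reads, other pseudocounts, filters, scalings, a replicate block and leaving out each library were alternatives. P-values set the age difference against the spread between animals of the same age. Both limma and edgeR moderate that spread across all rows, so it is not that of a row alone.

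Members and lists were chosen with earlier results of these data known. Members named with values were miR-299, the 10 highest by mean, those with an unadjusted p below 0.05, the 5 highest and the 5 lowest fold changes among members with a mean of at least 10, and the other arms of these. The RefSeq gene table is of Sscrofa11.1 and was used only for names and neighbours. Mature sequences were not analysed here.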

Additional observations from a re-analysis of the deposited data

How the results depend on the processing

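With 2 livers of each age, low reads and 1 library decide most values. The number of members called by limma was 0 as reported, 1 with a mean of at least 10, 1 by the exact test of edgeR, and 0 to 16 when 1 library was left out. It was 0 under pseudocounts of 0.1 and 10, without a filter, under both other scalings, with the total taken without miR-122, with a trended variance and by the quasi-likelihood test. The median log2 fold change of the members ranged from −1.10 to 2.45 over the left-out libraries, and was 1.37 by both edgeR tests and 1.21 with a mean of at least 10, and the ratio of the old to the young sum from 0.415 to 5.08. Among the 21 named members, the sign turned for ssc-miR-127 (−0.11 with the median of ratios, −0.15 with TMM), ssc-miR-758 (−0.082 and −0.12) and miR-127-5p (−0.025 and −0.060). It also turned for miR-376c-3p (0.33 with a pseudocount of 10, 0.016 without miR-122 in the total, 1.13 by each edgeR test) and for miR-494-3p (0.56 with a pseudocount of 10, 1.59 by the exact and 1.60 by the quasi-likelihood test). For miR-409-5p both edgeR tests gave 0.19, and for miR-369-5p a pseudocount of 0.1 gave −0.46. The edgeR tests work on mean reads and limma on mean log values, and a pseudocount changes the weight of zeros. Over the left-out libraries the log2 fold change ranged from −1.66 to 1.77 for ssc-miR-127, −1.65 to 3.06 for miR-411-5p, −0.48 to 2.91 for miR-409-3p, −1.19 to 4.04 for ssc-miR-369, −1.99 to 2.14 for ssc-miR-758, −2.48 to 2.45 for miR-376c-3p, −0.93 to 2.66 for ssc-miR-382, −2.40 to 0.91 for ssc-miR-370, −0.19 to 3.52 for ssc-miR-411, −3.24 to 2.80 for miR-494-3p, −2.26 to 1.33 for miR-409-5p, −1.34 to 1.60 for miR-127-5p, −0.80 to 2.77 for miR-382-3p and −1.10 to 2.07 for miR-369-5p. It kept its sign for miR-299, miR-323a-3p, miR-379-5p, miR-379-3p, miR-485-5p and miR-485-3p, and ssc-miR-493-5p could not be fitted without either old liver. Over the 10 rows with the ssc prefix alone, the median was 1.14, the ratio of sums 2.34 and the number called 0. The sows are unrelated, so the replicate number was not taken as a pairing of animals. Between same-numbered libraries, deviations from the mean of each age correlated at −0.016 for miRNAs and 0.090 for mRNAs. The labels do not say whether same-numbered libraries were prepared together. With the replicate block limma called 0 members, with 3 members and 89 of the 867 rows at an unadjusted p below 0.05. RTL1, at 0 throughout, gave no value, and none of the 7 pairs of an ssc row and a row without the prefix that share a number held the same values, so counting repeats once could not be run.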
